A study of Homo sapiens with 16 samples.

Results

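In HL60 cells given the CDK7 inhibitor SY-351 for 5 h, 219 of the 18093 transcripts counted lost most of their share of polyadenylated RNA. MYC, PIM1, XBP1 and CHAC1 were among them. They were chosen by their own counts, scaled to the total of each library (CPM, the count of a transcript per 1000000 counts of its library). The highest of the 4 SY-351 libraries had to lie at least 5-fold below the lowest of the 4 DMSO libraries, which itself had to reach 10 CPM. In all, 5491 transcripts reached 10 CPM in every DMSO library, so that the members made up 3.99% of those that could qualify. When CPM were rescaled by the TMM method, 64 of the 219 still met the rule and 155 did not. Because the levels chose the members, their levels, folds and level remaining are given as a description, with no test. Of the 219, 218 were matched to a gene symbol, and NM_001294306 on chromosome 19 kept its identifier.

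HL60 is a human acute myeloid leukaemia line, known for an amplified MYC gene. The labels call the cells of both groups wild type. One group received 50 nM SY-351 and the other the solvent DMSO, both for 5 h. Each group had 4 numbered replicates with 2 technical repeats each (16 records), deposited as 8 columns of counts, and the labels do not say whether replicates came from separate cultures. P-values therefore measure only the spread between these samples.

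CDK7 is the kinase of the general transcription factor TFIIH and phosphorylates the tail of RNA polymerase II when transcription starts. It also activates the kinases that drive the cell cycle. The level of an mRNA reflects both how fast it is made and how fast it decays, and mRNAs of immediate early genes, of many transcription factors and of feedback inhibitors are known for fast decay. Neither rate was measured here, and fewer expressing cells and less RNA per cell cannot be told apart in bulk RNA.

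The SY-351 libraries held 43266228 to 77891776 counts and the DMSO libraries 103676557 to 124242039 counts, so that 3 counts equalled at most 0.0693 CPM. DMSO 1 and 2 stood apart from DMSO 3 and 4. The members together took 0.189, 0.213, 0.204 and 0.193% of the counts in SY-351 libraries 1 to 4, against 3.82, 4.05, 1.65 and 1.67% in DMSO libraries 1 to 4. The ratio of the mean level in DMSO 1 and 2 to that in DMSO 3 and 4 had a median of 1.96 over the members, while the other 5272 transcripts that could qualify had a median ratio of 0.958. This split is not explained by the labels, and the level remaining is therefore also given against DMSO 3 and 4 alone. That choice of controls was made with the split known. P-values and SE against DMSO 3 and 4 alone leave out the difference between the control pairs, and so do not measure the whole spread of the controls. Of 8 promyelocyte markers, 4 had a row (MPO, CTSG, CEBPE and CD33), with a summed level of 30846 to 34312 CPM with SY-351 and 19745 to 32435 CPM with DMSO. MPO alone made up nearly all of this sum, with 30035 to 33560 CPM under SY-351 and 19049 to 31595 CPM under DMSO. CEBPE measured 68.1 to 79.3 CPM with SY-351 and 253 to 878 CPM with DMSO, and CTSG 606 to 681 CPM with SY-351 and 12.7 to 339 CPM with DMSO. The summed markers of T, B, erythroid, epithelial and fibroblast cells reached at most 18.1 CPM in any library. CD33 measured 76.8 to 81.7 CPM with SY-351, 3.73 and 2.04 CPM in DMSO 1 and 2, and 100 and 104 CPM in DMSO 3 and 4. The part of these markers' differences in the results was not tested.

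The sequences just upstream of 4 members are shown, as examples from kinase signalling (PIM1), the unfolded protein response (XBP1 and HERPUD1) and the integrated stress response (CHAC1), to be read with the motif shares given after them. Each is the RefSeq sequence of the 250 bases before the gene's start, on the strand of the gene (GRCh38.p14). PIM1 (chr6:37169902-37170151, plus strand) encodes a kinase that favours survival, XBP1 (chr22:28800570-28800819, minus strand) a factor that switches on unfolded protein response genes, CHAC1 (chr15:40953221-40953470, plus strand) an enzyme that degrades glutathione, and HERPUD1 (chr16:56931892-56932141, plus strand) a factor of endoplasmic reticulum degradation. Capitals mark the motifs, read on both strands: GC boxes (GGGCGG) in PIM1, CCAAT boxes (CCAAT) in the other 3, the C/EBP-ATF response element (TGATGNAA) in CHAC1 and HERPUD1, and a TATA box (TATAAA) in HERPUD1. GC boxes are marked in PIM1 only and E-boxes nowhere, and no marked site overlaps another.
PIM1: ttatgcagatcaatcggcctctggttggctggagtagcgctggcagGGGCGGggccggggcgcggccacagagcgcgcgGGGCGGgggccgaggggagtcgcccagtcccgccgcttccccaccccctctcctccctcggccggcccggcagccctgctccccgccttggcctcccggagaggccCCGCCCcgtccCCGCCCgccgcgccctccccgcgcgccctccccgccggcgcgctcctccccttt
XBP1: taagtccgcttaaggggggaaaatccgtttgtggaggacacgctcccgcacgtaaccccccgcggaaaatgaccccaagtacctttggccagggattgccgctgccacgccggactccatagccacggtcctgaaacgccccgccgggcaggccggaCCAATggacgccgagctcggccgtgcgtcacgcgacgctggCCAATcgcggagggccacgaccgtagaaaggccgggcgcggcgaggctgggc
CHAC1: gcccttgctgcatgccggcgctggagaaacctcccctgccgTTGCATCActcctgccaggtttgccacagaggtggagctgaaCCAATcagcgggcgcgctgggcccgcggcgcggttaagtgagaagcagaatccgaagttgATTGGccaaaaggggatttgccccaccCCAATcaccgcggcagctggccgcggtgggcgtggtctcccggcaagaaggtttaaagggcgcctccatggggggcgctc
HERPUD1: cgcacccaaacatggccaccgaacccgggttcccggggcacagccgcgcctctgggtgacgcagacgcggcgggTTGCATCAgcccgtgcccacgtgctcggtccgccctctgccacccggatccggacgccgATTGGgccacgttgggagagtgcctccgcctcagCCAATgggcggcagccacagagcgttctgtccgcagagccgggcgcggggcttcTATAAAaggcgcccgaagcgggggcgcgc
Within these 250 bases PIM1 holds 4 GC boxes and no CCAAT box, XBP1 2 CCAAT boxes, CHAC1 3 and HERPUD1 2. Over the longer window from 250 bases before to 50 after the start, 182 members had a RefSeq promoter. Where a gene had several, the entry nearest to the start of the counted transcript was used. A CCAAT box lay in 39.6% of these promoters, in 36.2% of the promoters of the 4380 other transcripts that could qualify and in 34.6% of all 35116 promoters. A TATA box lay in 6.04% of the members' promoters, in 4.18% of the others' and in 11.5% of all, and a GC box in 72.5%, 76.5% and 45.0%. The E-box (CACGTG) was found in 8.79% of members, 12.4% of the others and 7.26% of all, and the C/EBP-ATF response element in 3 members (1.65%), 1.23% of the others and 3.62% of all. A match is only a run of letters and does not show that a factor binds.

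MYC, the transcription factor whose gene is amplified in this line, had the highest level of all members in DMSO (chromosome 8, 127736230 to 127742951, GRCh38, 3 exons). It measured 114, 143, 133 and 114 CPM in SY-351 libraries 1 to 4, against 4058, 3924, 1766 and 1760 CPM in DMSO libraries 1 to 4. Among the controls, DMSO 1 and 2 were the high ones. Its level remaining, the mean with SY-351 as a percentage of the mean with DMSO, was 4.38%, and 7.15% of DMSO 3 and 4 alone. The log2 fold of the edgeR fit, which scales libraries by TMM, was -4.93 ± 0.74 (SE, n = 4 each) with all libraries. It was -3.38 ± 0.16 against DMSO 3 and 4 alone (n = 4 and 2). Here and below, SE is the absolute log2 fold over the square root of the F statistic of edgeR's test. That test shares variance across genes, so that this SE is not the plain spread of the gene's own libraries. Even so MYC was also the member with the highest level left, since no other kept over 100 CPM in a SY-351 library.

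XBP1 (chromosome 22, 28794559 to 28800572) and CHAC1 (chromosome 15, 40953470 to 40956512) belong to the response to misfolded proteins. XBP1 measured 17.2, 21.9, 19.4 and 18.1 CPM with SY-351, against 555, 709, 370 and 382 CPM with DMSO, and 3.80% remained. CHAC1 had the smallest part left of all members, 1.49% of the DMSO mean and 3.24% of DMSO 3 and 4. It measured 0.462, 0.412, 0.782 and 0.971 CPM with SY-351, against 68.4, 67.3, 19.4 and 21.2 CPM with DMSO. In CHAC1 the values within each group spread over more than 2-fold. The log2 fold of XBP1 was -5.07 ± 0.61 and that of CHAC1 -6.55 ± 0.92 (SE). With DMSO 3 and 4 alone these were -3.88 ± 0.16 and -4.58 ± 0.22.

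PIM1 (chromosome 6, 37170151 to 37175428) stood just above the minimum level. It measured 0.321, 0.553, 0.505 and 0.393 CPM with SY-351, against 22.4, 25.9, 10.4 and 10.5 CPM with DMSO, and 2.56% remained. DMSO 3 and 4 passed the 10 CPM minimum by little. When CPM were rescaled by TMM, PIM1 no longer met the rule, while MYC, XBP1 and CHAC1 still did. In all, 64 of the 219 members met the rule with TMM-scaled CPM, and 155 did not.

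**Figure D1:**
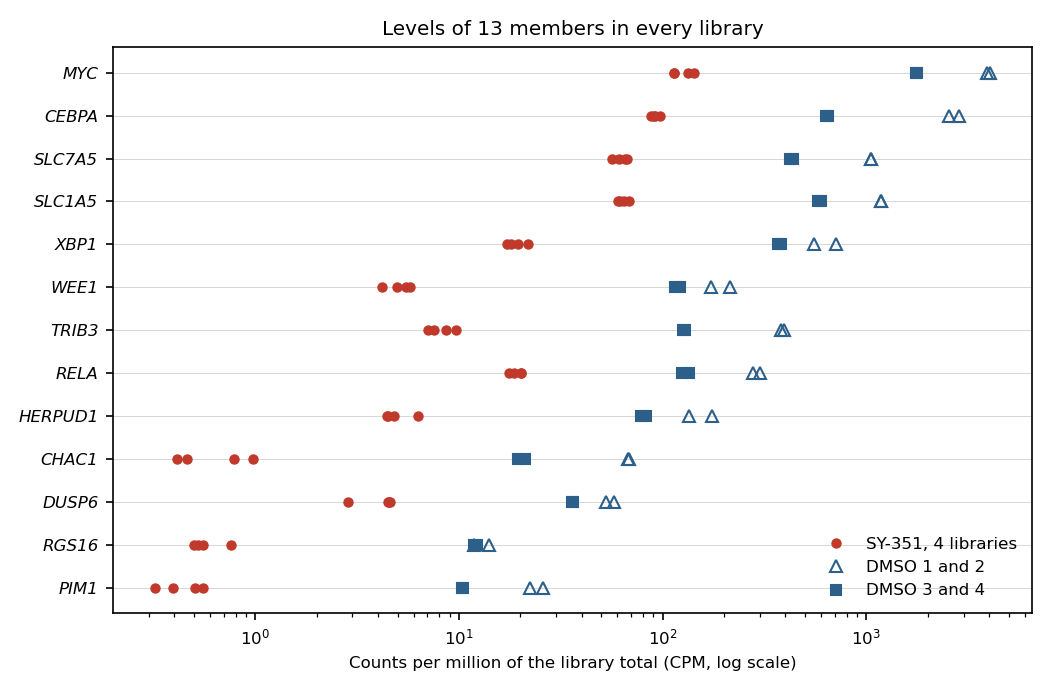
Levels of 13 members in each library, as CPM on a log axis; circles are the 4 SY-351 libraries, open triangles DMSO 1 and 2, filled squares DMSO 3 and 4. The rule itself places the SY-351 points left of every DMSO point. RGS16 is the gene in which all 4 DMSO points nearly coincide.

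The 8 members with the smallest ratio of the highest SY-351 library to the lowest DMSO library included PIM1, XBP1 and CHAC1. The uncharacterised C16orf54 came first, with 2.03, 2.84, 2.59 and 2.68 CPM with SY-351 and 122, 126, 62.8 and 64.1 CPM with DMSO. WEE1, the kinase that holds back mitotic entry, had 4.20, 5.76, 4.95 and 5.52 CPM with SY-351 and 172, 213, 115 and 121 CPM with DMSO. RGS16, which switches off G protein signals, had 0.501, 0.553, 0.521 and 0.763 CPM with SY-351 and 11.8, 14.1, 12.2 and 11.9 CPM with DMSO. In RGS16 the DMSO libraries lay close together, so that 4.67% of all DMSO and 4.85% of DMSO 3 and 4 remained. CILP2, a matrix protein, kept 1.56% of all DMSO but 4.94% of DMSO 3 and 4, and the zinc finger gene ZNF672 kept 2.74% and 5.74%.

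Transcription factors were the largest class. A list of transcription factors held 27 members, which was 9.15% of the 295 transcripts of that list that could qualify, beside 3.99% over all. The 6 with the highest level in their lowest DMSO library were MYC, CEBPA, XBP1, LYL1, JUND and RELA. CEBPA, the factor that directs granulocyte differentiation, measured 91.1, 96.7, 92.2 and 88.1 CPM with SY-351 and 2537, 2844, 635 and 648 CPM with DMSO. LYL1, a haematopoietic basic helix-loop-helix factor, measured 31.9 to 36.4 CPM with SY-351 and 218 to 1271 CPM with DMSO. JUND, the AP-1 subunit, measured 34.5 to 39.6 CPM with SY-351 and 201 to 1377 CPM with DMSO. In these 3 genes DMSO 1 and 2 were 4.20, 5.36 and 6.29 times as high as DMSO 3 and 4, so that 14.4% of CEBPA, 15.5% of LYL1 and 18.4% of JUND remained against DMSO 3 and 4, and 5.52, 4.88 and 5.04% against all. CEBPA, LYL1 and JUND did not meet the rule with TMM-scaled CPM. The other listed factors included ETS2, IRF1, IRX3, DBP, BCL3, CSRNP1 and 12 zinc finger genes, and the list's members kept 2.74% (ZNF672) to 14.4% (CSRNP1).

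Of the protein kinases 6 were members, 3.26% of the 184 on that list that could qualify, which is near the 3.99% over all transcripts. PIM1 and WEE1 are described above. PIM3, close kin of PIM1, measured 23.7, 26.4, 24.8 and 24.3 CPM with SY-351 and 660, 691, 141 and 145 CPM with DMSO. PLK1, the mitotic kinase, measured 16.1 to 18.6 CPM with SY-351 and 146 to 237 CPM with DMSO. RIPK2, which relays signals of the bacterial sensors NOD1 and NOD2, measured 2.59 to 3.45 CPM with SY-351 and 19.5 to 40.6 CPM with DMSO. The sixth, TRIB3, is a pseudokinase that restrains AKT and stress signalling, and 3.20% of it remained. PIM2, the third PIM kinase, was no member, with 6.65 to 9.29 CPM under SY-351 and 26.6 to 28.7 CPM under DMSO, and it fell by 2.02 ± 0.38 on the log2 scale (SE, edgeR adjusted p = 0.012). The log2 fold of PIM2 against DMSO 3 and 4 alone was -1.35 ± 0.17 (edgeR adjusted p = 4.6e-15).

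Inhibitors of signalling gave 13 members, 13.1% of the 99 on that list that could qualify, beside 3.99% over all. DUSP2, DUSP6, DUSP7 and the cytokine feedback inhibitor CISH limit the pathways that induce them. DUSP6, the ERK phosphatase, measured 2.86, 4.59, 4.48 and 4.51 CPM with SY-351 and 52.9, 57.7, 36.4 and 35.9 CPM with DMSO. CISH measured 2.03 to 2.42 CPM with SY-351 and 29.1 to 56.4 CPM with DMSO, and kept 5.19%. The rule itself keeps the groups apart in both genes. RGS14, RGS16 and RGS19 switch off G protein signals and kept 7.95, 4.67 and 6.07%. The cell cycle inhibitors CDKN1B and CDKN2C kept 8.79 and 6.03%, the antiproliferative BTG1 5.72%, and the mTORC1 inhibitor DDIT4 7.81%. Of the 13, only CISH, CDKN2C, BTG1 and TRIB3 met the rule with TMM-scaled CPM.

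Genes of the integrated stress response, which the factor ATF4 drives when translation is curbed, included 5 members of 27 that could qualify. That was 18.5%, beside 3.99% over all, and the members were CHAC1, DDIT4, SLC7A5, STC2 and TRIB3. SLC7A5, a subunit of a transporter of large neutral amino acids, measured 60.9, 66.6, 65.7 and 56.3 CPM with SY-351 and 1056, 1052, 420 and 437 CPM with DMSO. ATF4 itself measured 291 to 319 CPM with SY-351 and 566 to 820 CPM with DMSO, with a log2 fold of -1.46 ± 0.47 (SE) that did not pass (edgeR adjusted p = 0.07). Against DMSO 3 and 4 alone it was lower, with a log2 fold of -0.50 ± 0.16 (edgeR adjusted p = 0.0041). The asparagine synthetase ASNS, a usual ATF4 target, had 78.3 to 88.3 CPM with SY-351 and lay between the control pairs, with at most 25.3 CPM in DMSO 1 and 2 and up to 131 CPM in DMSO 3 and 4. Of the unfolded protein response genes of XBP1 and ATF6, 4 of 24 that could qualify were members (16.7%). They were XBP1, HERPUD1, the co-chaperone DNAJB9 and the ubiquitin ligase SYVN1. HERPUD1 measured 4.41 to 6.28 CPM with SY-351 and 78.1 to 175 CPM with DMSO. DNAJB9 was among the few members with like values in all controls, at 1.94 to 2.80 CPM with SY-351 and 23.6 to 27.7 CPM with DMSO. HSPA5, the main chaperone of the compartment, kept far more, 286 to 332 CPM with SY-351 and 737 to 1057 CPM with DMSO. It fell by 1.68 ± 0.35 on the log2 scale (SE, edgeR adjusted p = 0.016), and its log2 fold was -1.31 ± 0.16 against DMSO 3 and 4 alone.

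The NF-kB family and its feedback genes gave 5 members of 15 that could qualify, 33.3% beside 3.99% over all. These were the subunits RELA, RELB and NFKB2, the coactivator BCL3 and the inhibitor NFKBIE. With TMM-scaled CPM none of these 5 met the rule, which 1.25% of all transcripts that could then qualify met. RELA measured 17.6 to 20.1 CPM with SY-351 and 125 to 299 CPM with DMSO, so that 9.15% of all DMSO and 14.8% of DMSO 3 and 4 remained. NFKB2 measured 4.93 to 6.50 CPM with SY-351 and 45.3 to 112 CPM with DMSO, and NFKBIE 5.08 to 8.18 CPM with SY-351 and 58.2 to 170 CPM with DMSO. The subunits NFKB1 and REL, by contrast, had SY-351 levels between those of the control pairs. NFKB1 measured 35.2 to 39.6 CPM with SY-351, 17.6 and 17.3 CPM in DMSO 1 and 2, and 104 and 102 CPM in DMSO 3 and 4. Its log2 fold was -0.53 ± 0.42 with all libraries (SE, edgeR adjusted p = 0.41). It was -1.07 ± 0.16 when DMSO 3 and 4 were the only controls (edgeR adjusted p = 3.6e-11). NFKBIA, the inhibitor that NF-kB induces first, was no member, with 6.62 to 12.7 CPM under SY-351 and 58.0 to 75.2 CPM under DMSO, and fell by 3.14 ± 0.46 on the log2 scale (SE, edgeR adjusted p = 0.0063).

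Counts over the whole lists put these members beside their pathways. Over all genes 2100 of 15472 tested were lower with SY-351 (13.6%) and 450 higher (2.91%), by edgeR's quasi-likelihood test at an adjusted p below 0.05. The fit against DMSO 3 and 4 alone, which leaves out the spread between the control pairs, called 4172 of 15811 lower (26.4%) and 3466 higher (21.9%). All 219 members passed as lower in both fits, from which nothing is read, since the same contrast chose them. Without any 1 of the SY-351 libraries, 473 to 602 genes were lower and 61 to 76 higher, and 168 to 186 of the members passed. Without any 1 of the DMSO libraries 1264 to 3438 were lower, the fewest without DMSO 1 and the most without DMSO 3, and all 219 members passed.

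Of 1021 transcription factors tested 214 were lower and 12 higher, with a median log2 fold of -0.38 beside 0.00 over all genes. Leaving out the 27 members, 187 of 994 were lower (18.8%), beside 12.3% of all tested genes that are no member. Of 407 protein kinases 65 were lower and 10 higher, and without the 6 members 59 of 401 (14.7%) were lower. Of 212 signalling inhibitors 66 were lower and 5 higher, and without the 13 members 53 of 199 (26.6%) were lower. Kinases thus lay near the background, and inhibitors above it. Without any 1 of the SY-351 libraries the lower calls in these 3 lists were 50 to 65, 10 to 12 and 17 to 22, and without any 1 of the DMSO libraries 141 to 311, 37 to 114 and 35 to 91.

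In the small pathway lists the calls of the members were fixed by how they were chosen. Of 39 immediate early genes 20 were lower and 0 higher, 6 of them members. BTG2, an antiproliferative gene, measured 3.59 to 5.39 CPM with SY-351 and 20.8 to 33.0 CPM with DMSO, while FOS had 5.25 to 6.56 CPM with SY-351 and 4.86 to 12.6 CPM with DMSO and did not pass (log2 fold -0.95 ± 0.62, edgeR adjusted p = 0.33). FOS was higher with SY-351 than in DMSO 3 and 4 alone (log2 fold 0.71 ± 0.22, edgeR adjusted p = 0.0034). Of 23 MAP kinase feedback genes 12 were lower and 0 higher, 4 of them members (MYC, DUSP2, DUSP6 and DUSP7). Of these 4, only MYC met the rule with TMM-scaled CPM. Of 24 NF-kB feedback genes 12 were lower and 0 higher, of 36 ATF4 targets 14 and 0, of 28 unfolded protein response genes 12 and 1, and of 16 PIM and SOCS feedback genes 7 and 0. The 1 that was higher was PDIA6, a disulphide isomerase, with 809 to 879 CPM under SY-351, at most 154 CPM in DMSO 1 and 2 and 550 and 579 CPM in DMSO 3 and 4. Without any 1 of the SY-351 libraries the lower calls in these 6 lists, in the order given, were 5 to 7, 4, 5 to 8, 4 to 5, 3 to 5 and 3 to 4, and PDIA6 was no longer called higher. Without any 1 of the DMSO libraries they were 12 to 30, 7 to 13, 10 to 14, 11 to 18, 7 to 14 and 7 to 10. With the members left out, 14 of 33 immediate early genes (42.4%), 8 of 19 MAP kinase feedback genes (42.1%), 7 of 19 NF-kB genes (36.8%), 9 of 31 ATF4 targets, 8 of 24 unfolded protein response genes (33.3%) and 4 of 13 PIM and SOCS genes (30.8%) were lower, beside 1881 of 15253 genes that are no member (12.3%). The fit against DMSO 3 and 4 alone, in which 25.4% of all tested genes that are no member were lower, called 15 of 32 non-members lower in the first list, 9 of 19 in the second, 14 of 19 in the third, 16 of 31 in the fourth and 11 of 24 in the fifth. In that fit PIM and SOCS genes, with 4 of 13 (30.8%), lay near the background. Genes outside the members' list that are named in the pathway paragraphs were chosen after their values were seen.

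**Figure D2:**
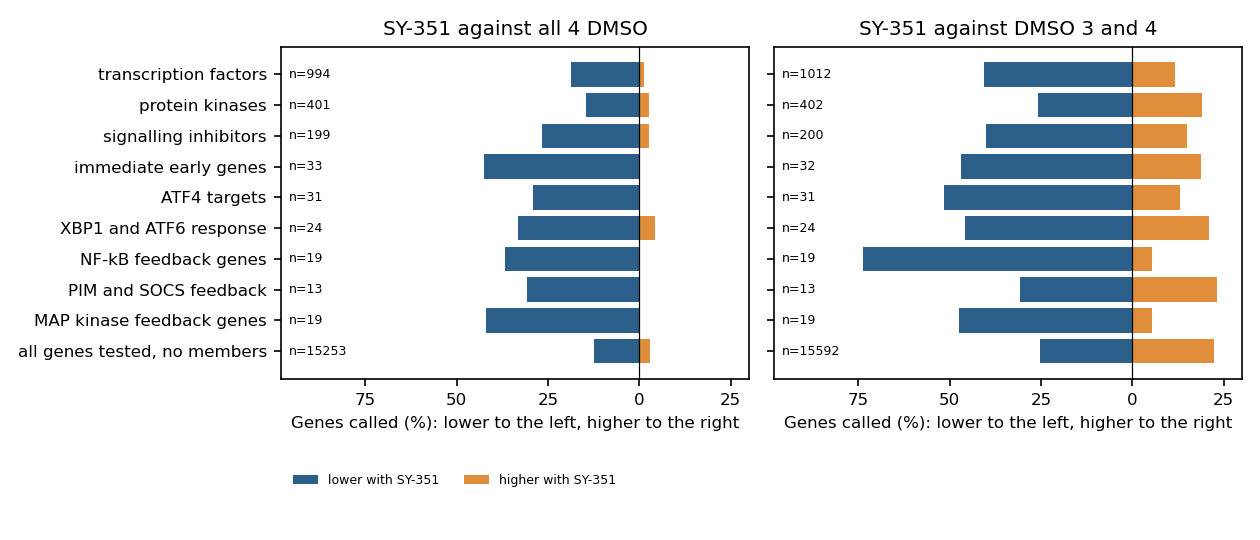
Share of the tested genes of each list, members left out, that edgeR called lower (left of 0) or higher (right of 0) in SY-351 cells, at an adjusted p below 0.05; n is the number tested. Lower calls outnumber higher ones in every list in both panels, and the share of all genes is at the bottom.

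A sorting of the members by role, made after the member list was known, placed 187 of them in 12 classes with each gene in 1 class. There were 30 transcription factors, 25 genes of ribosome biogenesis, RNA processing or RNA decay and 24 chromatin regulators or cofactors. These 3 classes held the Polycomb subunits CBX2 and CBX8, the exosome subunits EXOSC3 and EXOSC4, the elongation factor subunit PAF1, the histone H2AX and the Integrator subunit INTS5. A further 17 genes were inhibitors, 17 transporters, channels or enzymes of lipids and sugars, 16 receptors, ligands or adaptors, 15 of vesicle traffic or small GTPases and 14 mitochondrial. The remaining classes were 9 stress proteins, 9 ubiquitin ligases or proteases, 6 kinases and 5 cyclins, phosphatases and genome maintenance genes. The 32 others had no class. The kinases of this sorting included TP53RK, which is not on the list of protein kinases, and TRIB3 was sorted with the inhibitors.

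Against all DMSO libraries the median level remaining was lowest in transcription factors, at 5.95%, and highest in ubiquitin ligases and proteases, at 11.3%, with ribosome and RNA genes at 9.72% and mitochondrial genes at 10.9%. Against DMSO 3 and 4 alone the order changed: transcription factors kept 12.7%, ribosome and RNA genes 12.4%, receptors and ligands 9.81% and ubiquitin ligases 15.1%. The low value of the factors thus depends on DMSO 1 and 2, where their level was high. Within a class the genes ranged widely, from 1.67% (WNT6) to 14.7% (CXCR5) among receptors and ligands.

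The chromatin class had its lowest value in H2AX, the histone variant that marks DNA breaks. H2AX measured 24.4, 27.4, 27.7 and 28.1 CPM with SY-351 and 1444, 1638, 203 and 209 CPM with DMSO. BRPF1, a scaffold of histone acetyltransferases, depended less on the control pair, with 8.04 to 10.8 CPM under SY-351 and 110 to 153 CPM under DMSO, so that 8.04% of DMSO 3 and 4 remained. PER2, a repressor of the circadian clock, kept the most of this class, 15.7%.

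Among genes of RNA processing and decay, the exosome subunit EXOSC4 kept 4.45% and EXOSC3 10.5%. DDX20, a helicase of the SMN complex, measured 2.08 to 2.48 CPM with SY-351 and 27.5 to 46.1 CPM with DMSO, and SLBP, which binds the stem-loop of histone mRNAs, 19.3 to 23.2 CPM with SY-351 and 138 to 243 CPM with DMSO. As in all members, the rule itself sets the groups apart. YTHDF2, which directs methylated mRNAs to decay, kept 16.4%.

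Members with a part in receptor signalling reached down to the ligand WNT6 and the Wnt receptor FZD1. WNT6 measured 0.308, 0.862, 0.586 and 0.925 CPM with SY-351 and 62.3 and 72.0 CPM in DMSO 1 and 2, and at most 13.3 CPM in DMSO 3 and 4. FZD1 measured 0.937 to 2.07 CPM with SY-351 and 20.7 to 67.7 CPM with DMSO. TNFRSF1A, the main receptor of tumour necrosis factor, measured 17.2 to 21.5 CPM with SY-351 and 186 to 301 CPM with DMSO. The death receptor adaptor FADD kept 4.95% and the adaptor of NF-kB signalling TIFA 9.51%.

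Enzymes of sterol synthesis and sugar uptake were also members. SQLE, squalene epoxidase, kept 7.14% of all DMSO and 7.86% of DMSO 3 and 4, and the DMSO libraries ranged over 153 to 191 CPM. MVK, mevalonate kinase, kept 8.93%, INSIG1, which restrains sterol synthesis, 9.08%, and the glucose transporter SLC2A1 6.15% of all DMSO and 7.34% of DMSO 3 and 4.

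Of the cell cycle genes, CCNA2, cyclin A2, measured 16.3 to 21.0 CPM with SY-351 and 129 to 194 CPM with DMSO. CDC25A, the phosphatase that opposes WEE1, measured 10.5 to 12.6 CPM with SY-351 and 88.8 to 116 CPM with DMSO. Both the kinase WEE1 and the phosphatase that opposes it were thus members, with 3.29 and 10.7% left. Mitochondrial members included the ribosomal proteins MRPL15, MRPL17, MRPL44 and MRPS2, which kept 10.1% (MRPS2) to 13.9% (MRPL44), and SDHAF1, an assembly factor of succinate dehydrogenase, with 4.44%. Genes of these classes that are on none of the lists were named after the member list was known.

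**Figure D3:**
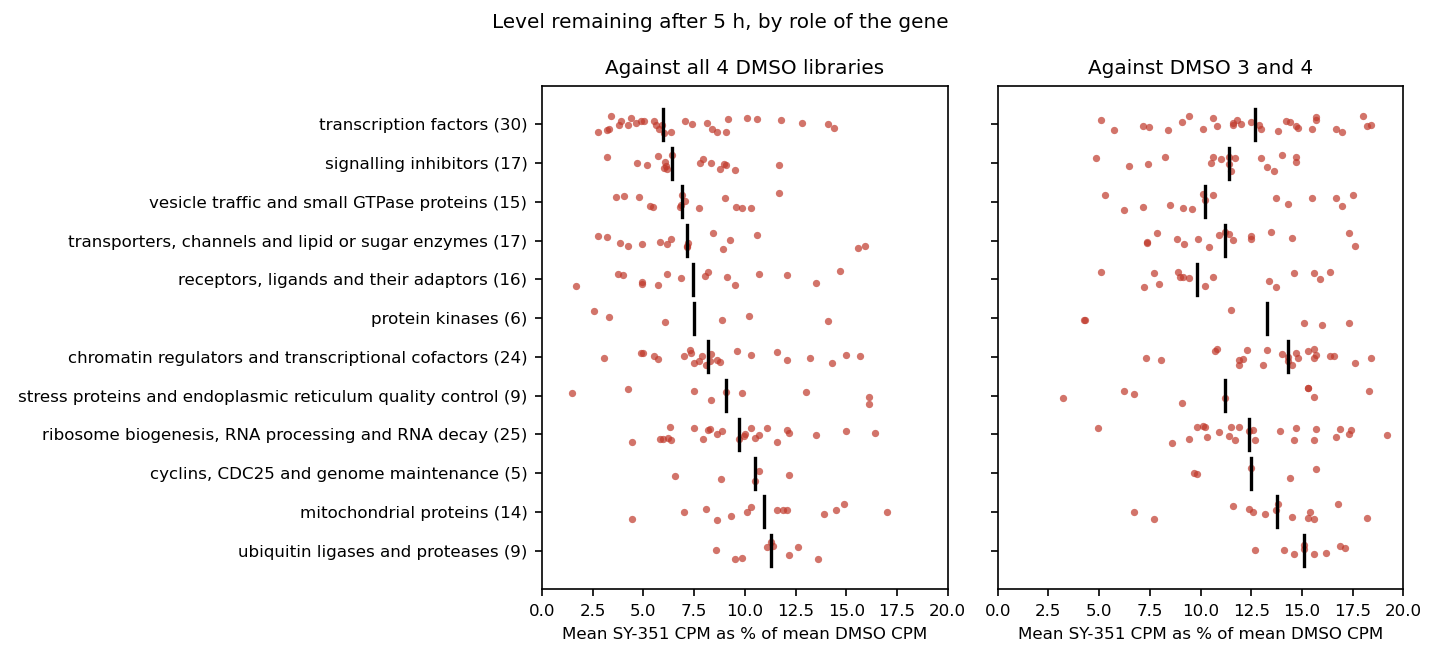
Level remaining of each classed member (points) and the median of its class (bars), as the mean SY-351 CPM in percent of the mean CPM of all 4 DMSO libraries (left) or of DMSO 3 and 4 (right); the number of genes stands in brackets. Transcription factors have the lowest median on the left, at 5.95%, and lie at 12.7% on the right.

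Over all 219 members a median of 8.35% of the DMSO level remained after 5 h, with quartiles of 5.79 and 10.6% and a range of 1.49 (CHAC1) to 17.0% (MIEF1). At most 10% remained in 150 members and at most 5% in 42. The median against DMSO 3 and 4 was 12.6%, with a range of 3.24 to 19.2%, and 55 members kept at most 10%. Against DMSO 1 and 2 it was 6.41%. The other transcripts that could qualify kept a median of 66.9% of all DMSO and 70.2% of DMSO 3 and 4.

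As shares of the library total, few members were near the limit of detection with SY-351, and no absolute amount of RNA was measured. Only 4 members stayed at or below 1 CPM in every SY-351 library, and 50 kept at least 10 CPM in every one. The smallest count of any member in a SY-351 library was 17, so that the low values are counted and not missing. Besides MYC and CEBPA, the highest levels left were those of the transporters SLC1A5 (60.6 to 68.3 CPM) and SLC7A5 (56.3 to 66.6 CPM) and of FARSA, a subunit of phenylalanyl-tRNA synthetase (51.5 to 60.8 CPM). In DMSO these 3 had 578 to 1186, 420 to 1056 and 445 to 673 CPM. Ranked by their lowest DMSO library, the same 5 genes also led the members in DMSO. Over the SY-351 libraries the members had a median coefficient of variation of 10.4%, beside 5.90% for the other transcripts that could qualify. Over the DMSO libraries the members' median was 38.0%, which includes the split between the control pairs.

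Genes picked by their ratio as nearest to the limit lie close together by that choice, on either side of the rule. Just inside it lay CCDC86, ZNF747 and MRFAP1, with 20.4 to 22.7, 2.98 to 3.65 and 34.6 to 38.3 CPM under SY-351 and 113 to 261, 18.3 to 63.0 and 192 to 294 CPM under DMSO. Just outside lay the RNA-binding gene RBM15B, NUBP1 and COG8, with 29.5 to 36.4, 1.99 to 3.27 and 5.59 to 7.05 CPM under SY-351 and 182 to 366, 16.4 to 21.4 and 35.2 to 55.9 CPM under DMSO. RBM15B kept 11.9%, less than MRFAP1 with 16.1%, because the rule compares extreme libraries and not means.

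The choice of control pair moved the members in a graded way. In 182 of 219 members both DMSO 1 and 2 lay above both DMSO 3 and 4, and in 18 both lay below. H2AX had the largest ratio of the pairs, 7.49, and kept 3.08% of all DMSO but 13.1% of DMSO 3 and 4. The methyltransferase gene SUV39H1 had the smallest, 0.518, with 3.84 to 5.35 CPM under SY-351, 34.2 and 30.6 CPM in DMSO 1 and 2, and 63.4 and 61.6 CPM in DMSO 3 and 4. The ratio went with the GC content of the spliced transcript (Spearman's rho 0.68 over 216 members and 0.63 over 5394 transcripts that could qualify, as a description across genes that share the same libraries). What sets DMSO 1 and 2 apart was not tested. In 27 members all 4 DMSO libraries lay within 1.25-fold of each other, among them RGS16, DNAJB9, SQLE, PAF1, TRAF4 and MIEF1, and these kept a median of 11.6%.

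**Figure D4:**
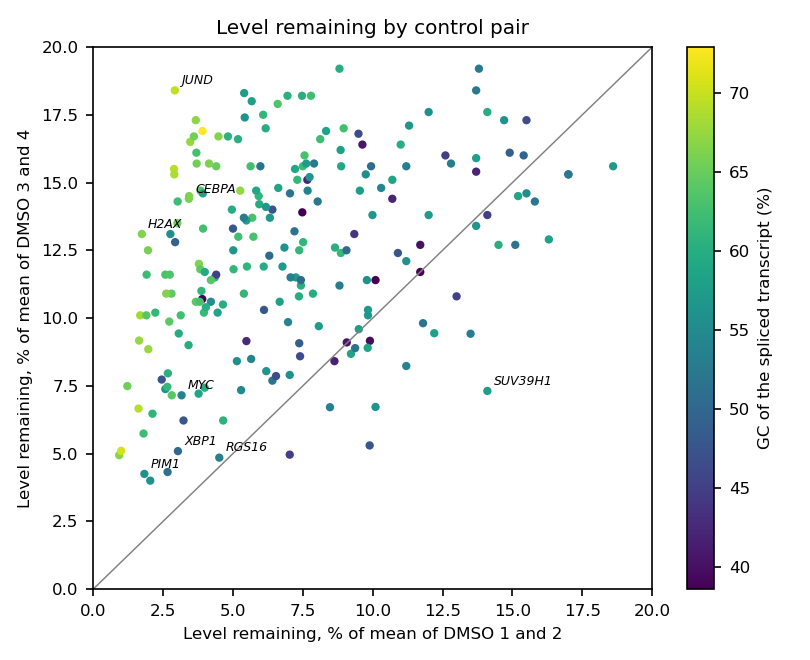
Level remaining of each member with a GC value, in percent of the mean of DMSO 1 and 2 (horizontal) and of DMSO 3 and 4 (vertical), coloured by the GC content of the spliced transcript; the line marks equal values. Most members lie above the line, H2AX and JUND far above it, and SUV39H1 below it.

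Members had short intervals. The authors counted reads over the whole interval from a transcript's start to its end, introns included, and the members' intervals had a median of 8593 bp (quartiles 4732 and 15361 bp). The other transcripts that could qualify had a median of 27490 bp, and all 18093 a median of 23518 bp. The longest members were TXNDC11 at 63774 bp, UBE2O at 63698 bp and JADE2 at 58914 bp. The shortest were EMC6 at 855 bp, SDHAF1 at 1132 bp and POP7 at 1367 bp. Of transcripts under 3 kb 11.2% were members, of those of 3 to 5 kb 12.1%, of 10 to 20 kb 5.31% and of 50 to 100 kb 0.706%. None of the 747 of 100 kb or more was a member.

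The difference in length remained when the rule was changed, but its limit at the long end did not. Against DMSO 3 and 4 alone, 441 transcripts met the rule, with a median of 12032 bp beside 31253 bp for the others that could qualify, and 2 of them spanned 100 kb or more. With DMSO 1 and 2 alone 836 met it, with a median of 9980 bp beside 29134 bp, and 15 spanned 100 kb or more. Across the transcripts that could qualify, however, length ranked with the level remaining only against all DMSO libraries (Spearman's rho 0.31 over 5491 transcripts) and hardly against DMSO 3 and 4 (0.08), a description across genes. In long intervals, reads of unspliced RNA enter the count, and their share was not measured.

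Members also had few exons. A single exon was found in 19 of 216 members with a GENCODE transcript (8.80%), beside 1.47% of the other transcripts that could qualify, and 1 or 2 exons in 27.8% beside 4.83%. Seen the other way, 20.0% of the 95 single-exon transcripts that could qualify were members, 19.1% of those with 2 exons, 6.72% with 3 to 5 and 1.22% with 11 or more. CEBPA, JUND, H2AX and FZD1 are single-exon members, and NFKB2 and PER2 have 23 exons. The spliced transcripts were of ordinary length, with a median of 2589 nt beside 2936 nt. Their GC content was 58.1% beside 52.8%, and 52.2% beside 48.0% for the transcripts that met the rule against DMSO 3 and 4 alone. Over 5394 transcripts that could qualify, GC ranked with the level remaining against all DMSO libraries (Spearman's rho -0.34) but not against DMSO 3 and 4 (0.04), a description across genes. In the 27 members whose DMSO libraries lay close together, the median GC content was 52.6% and 3 had 1 or 2 exons. Against DMSO 3 and 4 alone, the transcripts that met the rule still had 1 or 2 exons more often than the others, in 19.3% beside 4.16%.

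**Figure D5:**
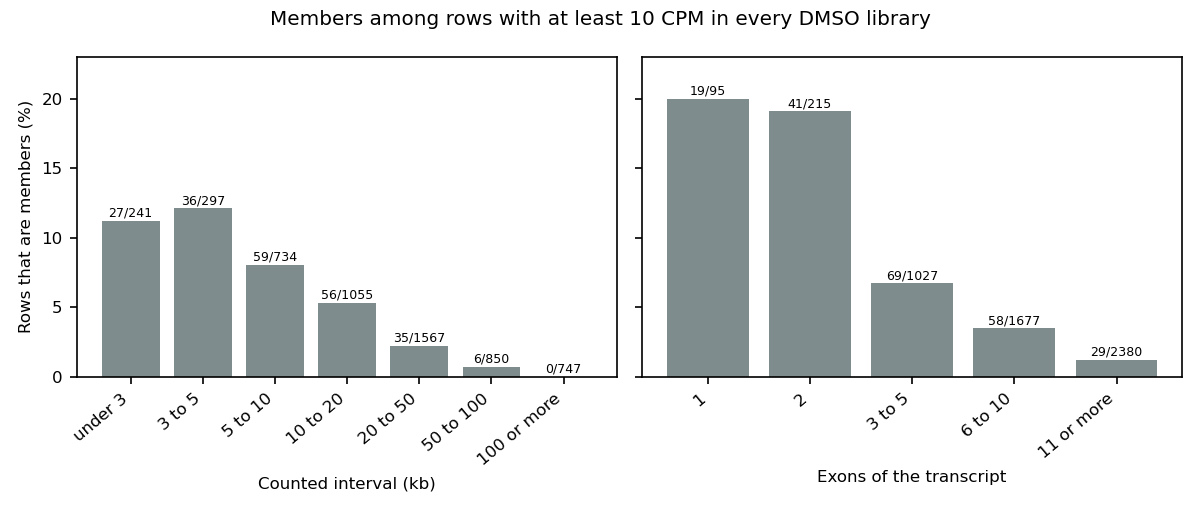
Share of transcripts that are members, among those with at least 10 CPM in every DMSO library, by length of the counted interval (left) and by number of exons (right); the members and the transcripts in each bin stand above the bars. The share is 11.2% under 3 kb and 0 of 747 at 100 kb or more, and 20.0% with 1 exon against 1.22% with 11 or more.

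AU-rich elements, a known mark of unstable mRNAs, were not more common in members. The motif TATTTAT was found in the 3′ untranslated region of 27.3% of members and 28.2% of the others that could qualify, and ATTTA occurred 1.58 times per kb in members and 2.10 times in the others.

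Some members were neighbours. Of the 219, 26 lay within 50 kb of another member (11.9%), in 12 groups, beside 5.35% of the other transcripts that could qualify that lay within 50 kb of a member. CHAC1 lies within 50 kb of VPS18, a subunit of the vesicle tethering complexes, which measured 4.90 to 7.09 CPM with SY-351 and 97.5 to 147 CPM with DMSO. SAC3D1, ZFPL1 and SYVN1 form a group on chromosome 11 in which 8 transcripts could qualify. In addition, 19 members (8.68%, beside 15.5% of the others that could qualify) overlap a transcript on the other strand, among the named ones PLK1, SYVN1, TXNDC11, CCDC86, BCL9L, DBP and SAC3D1, and whether the library kit marked strand is not given in the sources used here.

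Splicing was a readout that the rule did not use. The authors' deposited table lists local splicing variations between SY-351 and control without values per sample, and it lists variations that changed. A variation was listed for 34 members (15.5%) and for 1470 of the 5272 other transcripts that could qualify (27.9%). A variation that differed by at least 0.2 in inclusion at a probability of at least 0.95 was listed for 22 of the 219 members and for 18.0% of the 5272 others, beside 17.7% of all 5491. Members have fewer exons and hence fewer junctions, and fewer reads with SY-351, and the part of each in this difference was not tested.

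In the authors' deposited table the sorting nexin gene SNX20 had the largest difference, with an inclusion of 0.985 with SY-351 and 0.208 in control for 1 of 7 junctions. A junction of the zinc finger gene ZNF71 had an inclusion of 0.131 with SY-351 and 0.852 in control in the authors' deposited table. There, UBE2O stood at 0.302 with SY-351 and 0.942 in control, TBC1D10B at 0.340 and 0.976 and KCNN4, a potassium channel gene, at 0.384 and 0.989. YTHDF2, a reader of methylated RNA, had in the same deposited table of the authors a junction at 0.615 with SY-351 and 0.042 in control. The others past the threshold were BCL9L, CCM2, CDC25A, CDKN2AIP, DBP, FIZ1, IRX3, METTL1, MRFAP1, NFKBIE, SAC3D1, SLC2A1, SQLE, TRIM65, ZC3H4 and ZNF672.

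XBP1 has a short intron that the stress sensor IRE1 removes outside the spliceosome. The authors' deposited table has 2 entries for XBP1 with a retained intron of 24 bases. The values given are those of the junction with the largest difference in each entry, and whether it is the retained intron was not checked. In the authors' deposited table its inclusion in the first entry was 0.292 with SY-351 and 0.549 in control (difference -0.235, probability 0.693). In the second entry of the authors' deposited table it was 0.290 with SY-351 and 0.515 in control (difference -0.215, probability 0.594). Neither entry passed the threshold, and whether the intron is the IRE1 intron was not tested. Among the 34 members with a variation, 6 had an entry with a retained intron (2.74% of members, beside 8.08% of the others that could qualify).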

How the data were processed

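Per the labels' protocols, TRIzol RNA of HL60 cells went through polyA selection and an Illumina TruSeq RNA kit. The authors counted reads with featureCounts 1.6.2 at strand setting 1, over 1 interval per RefSeq transcript, per the file headers, and the deposited table holds whole-number counts in 8 libraries. The submitters' processing notes name GRCh38 and DESeq2. Starts are printed as the file gives them. The authors' deposited splicing table holds inclusion as a fraction from 0 to 1, its difference, which was control minus SY-351 and is turned round here, and a posterior probability. It uses another build, so that no splicing coordinate is printed.

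CPM were computed from column totals. Members and lists were chosen with earlier results of these data known, and the 12 roles after the members were known. Symbols came from RefSeq (17871 rows) and GENCODE (130), 92 rows kept their identifier, and 13 rows that shared a symbol were set aside in the fits. The test across genes was run in R 4.3.3 with edgeR 4.0.16 (TMM, filterByExpr, robust quasi-likelihood fit, two-sided, Benjamini-Hochberg over all genes), with group as the only term, after a test on simulated counts. Exons, GC and 3′ untranslated regions came from GENCODE v29, promoters from RefSeq (GRCh38.p14). Alternatives were DESeq2 1.42.0, limma-voom (limma 3.58.1), other scaling, filters, thresholds, controls and a replicate block, and leaving out each library.

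Named were MYC, PIM1, XBP1, CHAC1, the 8 members with the smallest ratio, the 6 (3 in small lists) with the highest lowest DMSO level per list, the 3 longest and shortest, the 5 highest in each group, the 3 nearest the limit on each side, and members past the splicing threshold. Some items are not reported here.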

Additional observations from a re-analysis of the deposited data

Results flagged for a closer look

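Of 126 groups of 4 libraries checked for the named genes and the members' share of counts, 5 held a library whose gap to the nearest of the others was wide for the range of its group. Chance gives about 1 such group in 20. SY-351 1 was low for DUSP6, with 2.86 CPM, where the other 3 SY-351 libraries had 4.48 to 4.59 CPM. SY-351 2 was high for NFKB2, with 6.50 CPM against 4.93 to 5.20 CPM in the other 3, and for RBM15B, which lies just outside the limit, with 36.4 CPM against 29.5 to 29.9 CPM. SY-351 4 was low for MRFAP1, with 34.6 CPM against 37.9 to 38.3 CPM. DMSO 2 was high for RGS16, with 14.1 CPM against 11.8 to 12.2 CPM.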

How the results depend on the processing

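The number of members depended on how libraries were scaled and which controls were used. It was 71 with TMM-scaled CPM and 61 with DESeq2 size factors, 441 against DMSO 3 and 4 alone and 836 against DMSO 1 and 2 alone, 462 against DMSO 3 and 4 without SY-351 4, and 713 with group means. A limit of 4-fold gave 336 and of 10-fold 29. Leaving out 1 library gave 224 to 237, and doing so can only add transcripts to the 219, since the rule compares the extreme libraries. The members' median length was 8396 to 12032 bp under every alternative run. The median level remaining was 12.6% with DMSO 3 and 4 alone, and 7.61 to 9.31% with 1 library left out.

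Over all genes 473 to 3438 were lower and 61 to 1885 higher with 1 library left out. DESeq2 gave 3482 lower and 1062 higher, total count scaling 215 higher, DMSO 3 and 4 alone 4172 and 3466, and DMSO 1 and 2 alone 5996 and 6372. With the replicate number as a block 0 were lower and 0 higher, over all genes and in all lists and members, although 3649 genes had an unadjusted p below 0.05. Same-numbered libraries did not deviate together (r of -0.173 to 0.007), so that this block does not stand for a pairing.

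The shares of each list called lower or higher moved as well. DESeq2 called 332 transcription factors lower, and 2.48% of them higher, 25.6% of kinases lower and 6.28% higher, 4.11% of inhibitors higher and 7.14% of unfolded protein response genes higher. With total count scaling the higher shares of these 4 lists were 0.588, 1.23, 0.943 and 0%. DESeq2 size factors in edgeR gave 1.42% of inhibitors and 0% of unfolded protein response genes higher, no filter also 0% of the second, and limma-voom 20.3% of inhibitors lower. Against DMSO 3 and 4 alone, transcription factors were 42.3% lower and 11.3% higher, kinases 27.0 and 18.9%, ATF4 targets 58.3 and 11.1% and NF-kB genes 79.2 and 4.17%. The higher shares there were 14.1% for inhibitors, 15.8% for immediate early genes, 17.9% for unfolded protein response genes, 18.8% for PIM and SOCS genes and 4.35% for MAP kinase feedback genes. Against DMSO 1 and 2 alone, lower and higher shares were 42.2 and 38.3% of transcription factors, 46.6 and 34.4% of kinases, 58.2 and 24.9% of inhibitors, 94.9 and 2.56% of immediate early genes, 61.1 and 30.6% of ATF4 targets, 75.0 and 17.9% of unfolded protein response genes and 68.8 and 18.8% of PIM and SOCS genes. The higher shares of NF-kB and MAP kinase feedback genes there were 20.8 and 4.35%.

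With 1 library left out, lower and higher shares ranged over 4.75 to 30.6% and 0.285 to 6.09% of transcription factors, 2.43 to 28.1% and 0.485 to 11.9% of kinases, and 7.91 to 42.7% and 0.930 to 10.3% of inhibitors. The ranges were 12.8 to 76.9% and 0% for immediate early genes, 11.1 to 50.0% and 0 to 2.78% for ATF4 targets, and 10.7 to 50.0% and 0 to 7.14% for unfolded protein response genes. They were 20.8 to 58.3% and 0 to 4.17% for NF-kB genes, 18.8 to 62.5% and 0 to 6.25% for PIM and SOCS genes, and 17.4 to 56.5% and 0 to 4.35% for MAP kinase feedback genes. The cause of these moves was not tested. Of 992 values of single named genes, 847 stayed within their replicate spread or on their side of the threshold, 145 moved and 0 changed sign. Of the 62 named genes 59 are members, in which the rule sets every SY-351 library at least 5-fold below every DMSO library. The rest lie just outside that limit, so that nothing is read from the lack of a sign change. The CPM equal to 3 counts reflects counting error only, and not the spread between libraries.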
